A study of Mus musculus with 2 samples.

Results

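Lipid uptake, storage and efflux were followed through 10 genes in mouse alveolar macrophages, the resident phagocytes of the lung air spaces: Lpl, Cd36, Fabp4 and Fabp5 for uptake and transport, Plin2 and Cidec for storage, Lipa for lysosomal hydrolysis, and Nr1h3, Abca1 and Abcg1 for efflux. They were taken by name, 10 of 22180 genes that carried a single symbol in the array's annotation, and each gene took its feature (a set of probes read as 1 value) with the highest mean of both arrays. Lpl had 2 such features, Fabp5 had 4 and the others of the 10 had 1 each. Among further genes named below, Fabp3, Smpd1, Npc1, G0s2 and Nceh1 had 2 features each, and only the brighter is given. The mice were 8 to 10 weeks old, and the cells were isolated from lung by flow cytometry, with 1 Affymetrix array for each genotype. The mutant genotype was Lysm-Cre Ssu72fl/fl (Ssu72fl/fl below), in which Cre recombinase, expressed in myeloid cells from the lysozyme 2 locus, meets floxed alleles of Ssu72, whose product removes phosphate from the tail of RNA polymerase II. The other was Lysm-Cre, so both genotypes carried Cre. The sources used here do not state how many mice contributed to an array, or their strain. Since each genotype had a single array, no test between them was possible, and each value carries only the precision of 1 array.

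Alveolar macrophages take up and break down surfactant, a film rich in phospholipid, cholesterol and neutral lipid. Lipid enters through scavenger receptors and after lipase action, is carried by fatty acid binding proteins, and is hydrolysed in lysosomes or held as esters in lipid droplets. Cholesterol leaves through ATP-binding cassette transporters whose genes are activated by liver X receptors when oxysterols accumulate, and in these cells PPAR-gamma and the transporter Abcg1 are known to be needed for normal lipid handling.

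Signals are the deposited log2 values. Every difference is the signal on the Ssu72fl/fl array minus that on the Lysm-Cre array, so a negative difference means lower in Ssu72fl/fl. The median of all values on both arrays, 4.65, was used as a floor for background, and all 10 genes were above it on both arrays. Differences between the arrays drifted downward with rising signal, so each is also given after the median difference of the 200 named genes nearest in mean signal was subtracted, called the level-adjusted difference. The robust SD of those 200 differences is called the local spread. It describes scatter between genes and not between animals. Across the whole series, the 99th percentile of features was 7.66 on the Ssu72fl/fl array and 8.05 on the Lysm-Cre array, while the medians were 4.66 (Ssu72fl/fl) and 4.65 (Lysm-Cre). The targeted gene Ssu72 read 4.998 on the Ssu72fl/fl array and 4.862 on the Lysm-Cre array, a difference of 0.14 with a local spread of 0.14. The sources used here do not state where its probes lie relative to the floxed part, so Ssu72 did not check the label. Lyz2, whose locus carries Cre, read 9.74 on the Ssu72fl/fl array and 10.23 on the Lysm-Cre array (-0.49, level-adjusted -0.060), with a sign that turned under 1 of 5 scalings.

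Among the 10 genes, 9 were lower on the Ssu72fl/fl array, led by the lysosomal acid lipase gene Lipa (-0.79) and the lipid droplet coat gene Plin2 (-0.66), and Fabp4 (0.19) was the only gene that was higher. The median difference was -0.28, against -0.010 over the 12040 named genes with a mean signal above the floor and -0.072 over the 3647 named genes in the signal range of the 10. Of those 12040 genes 52.7% were lower, and of those 3647 genes 61.9% were lower. After level adjustment 7 of the 10 genes were lower and 3 were higher, where 50.2% of genes in the signal range were lower. The level-adjusted median of the 10 was -0.12, and Lpl and Abcg1 were the genes whose sign turned. At least 1.2-fold lower were 6 of the 10, where 9.93% of named genes above the floor and 22.4% of those in the signal range were so; with the nearest genes subtracted this count was 1 (Lipa), where 6.27% of named genes above the floor were so, and after quantile normalization it was 2, where 5.57% were so. Only Lipa and Plin2 were at least 1.5-fold lower and none was at least 1.5-fold higher, where 1.49% of named genes above the floor and 3.59% of those in the signal range were at least 1.5-fold lower, and 0.374% and 0.823% at least 1.5-fold higher. None of the 10 was 2-fold lower, as were 0.0997% of genes above the floor and 0.192% in the signal range. Of the 10 level-adjusted differences, 3 lay outside their local spread, those of Lipa and Nr1h3 on the lower side and that of Fabp4 on the higher side, where 16.1% of genes in the signal range lay outside on each side.

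**Figure D1:**
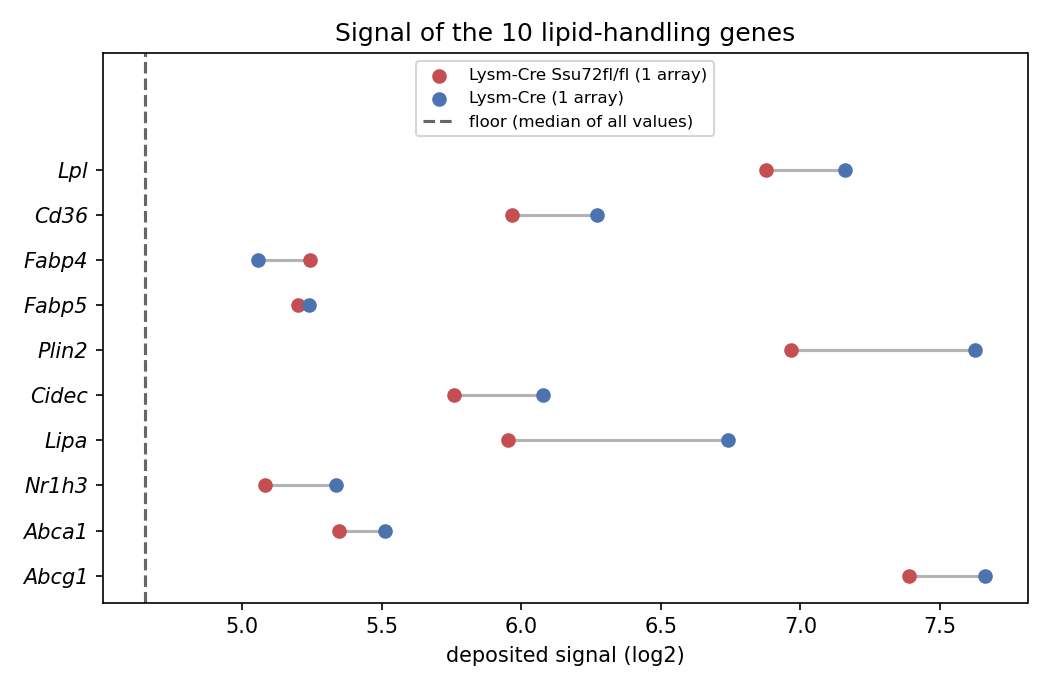
Deposited log2 signal of each of the 10 genes on the Ssu72fl/fl array (red) and the Lysm-Cre array (blue), 1 array each, with the floor of 4.65 as a dashed line. Fabp4 is the gene whose red point lies to the right of its blue point, and the gap is widest for Lipa.

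The promoter windows of Lipa and Plin2 are shown because these 2 genes passed 1.5-fold, and that of Cd36 because it holds the same pair of motifs as Plin2 with a smaller difference. RefSeq promoter windows of build GRCm38.p6 were at hand for 6 of the 10 genes, in 8 windows. None was at hand for Lpl, Abcg1, Fabp4 and Fabp5, so these genes were not searched. The 250 bases before the start were searched on both strands for the nuclear receptor motif AGGTCA, the E-box CACGTG, the CCAAT box, the TATA box TATAAA and the GC box GGGCGG. Matches stand in capitals, 5′ to 3′ on the gene's strand, and none overlapped another. All 3 genes lie on the minus strand, at chr19:34527475-34527724 for Lipa, chr4:86670060-86670309 for Plin2 and chr5:17835897-17836146 for Cd36.
Lipa: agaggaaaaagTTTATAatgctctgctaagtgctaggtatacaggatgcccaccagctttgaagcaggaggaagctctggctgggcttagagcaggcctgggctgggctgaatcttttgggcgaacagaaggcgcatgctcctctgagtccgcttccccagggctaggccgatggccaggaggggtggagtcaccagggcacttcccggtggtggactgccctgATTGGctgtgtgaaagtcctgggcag
Plin2: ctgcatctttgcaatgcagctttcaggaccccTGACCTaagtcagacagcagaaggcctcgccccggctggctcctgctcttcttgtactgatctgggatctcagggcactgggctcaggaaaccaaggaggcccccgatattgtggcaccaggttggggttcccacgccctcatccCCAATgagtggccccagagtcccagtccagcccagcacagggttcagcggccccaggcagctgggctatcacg
Cd36: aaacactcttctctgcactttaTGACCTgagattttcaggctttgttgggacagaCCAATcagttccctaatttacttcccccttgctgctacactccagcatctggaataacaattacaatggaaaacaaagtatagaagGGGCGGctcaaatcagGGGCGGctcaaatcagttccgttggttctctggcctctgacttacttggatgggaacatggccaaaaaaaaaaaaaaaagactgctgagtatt

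A CCAAT box was found in the windows of Lipa, Plin2 and Cd36, and in 33.8% of 32851 promoter windows. The nuclear receptor motif was found in Plin2 and Cd36, and in 14% of all windows. Lipa had a TATA box match on the strand opposite to the gene, beginning 239 bases before the start; Abca1 also held one, as did 12.4% of all windows. The GC box occurred at 2 places in Cd36 and was also in the window of Abca1, and in 32.7% of all windows. The E-box was present in the window of Abca1 and in 6.02% of all windows. The direct repeats AGGTCANAGGTCA and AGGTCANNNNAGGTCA, the forms named DR1 and DR4 that are known to be bound by PPAR and LXR with their partner RXR, were in none of the 8 windows, and in 0.0335% and 0.0152% of all windows. Only exact copies of these repeats were searched, and they were rare among all windows. Their absence from the 8 windows therefore cannot tell whether these genes hold such sites. A match describes the letters of these windows and no binding was measured.

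Lpl encodes lipoprotein lipase, which releases fatty acids from triglyceride. Its signal was 6.88 on the Ssu72fl/fl array and 7.16 on the Lysm-Cre array, a difference of -0.28. The genes nearest in signal had a median difference of -0.37, so Lpl was at 0.083 after level adjustment, inside its local spread of 0.30. The direction for Lpl therefore depended on the scaling. Its second feature read 4.72 on the Ssu72fl/fl array and 4.55 on the Lysm-Cre array, below the floor on the Lysm-Cre array only, and differed in the opposite direction. By signal, the main feature of Lpl ranked 253rd of 22180 named genes on the Ssu72fl/fl array and 277th on the Lysm-Cre array. Ranks place the signals of different probes and are not transcript abundances.

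Cd36 encodes a scavenger receptor and fatty acid translocase. It read 5.97 on the Ssu72fl/fl array and 6.27 on the Lysm-Cre array, with ranks of 811 (Ssu72fl/fl) and 642 (Lysm-Cre). The difference of -0.30 became -0.16 after level adjustment, against a local spread of 0.32, and 59 of the 200 nearest genes had a lower difference. Cd36 was lower under every scaling tried, by amounts from -0.31 to -0.10.

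The fatty acid binding protein genes Fabp4 and Fabp5 lie near each other on the same chromosome. Fabp4, the adipocyte and macrophage form, read 5.24 on the Ssu72fl/fl array and 5.06 on the Lysm-Cre array, ranks 3049 (Ssu72fl/fl) and 4758 (Lysm-Cre). Its difference of 0.19 was the highest of the 10 and its level-adjusted difference of 0.20 exceeded the local spread of 0.18. Of the 200 genes nearest to Fabp4 in signal, 183 had a lower difference. Fabp5, the epidermal form, read 5.20 on the Ssu72fl/fl array and 5.24 on the Lysm-Cre array, a difference of -0.039. After level adjustment Fabp5 was at -0.0072 with a local spread of 0.20, so its 2 signals could not be told apart from the scatter of genes at that level. The 3 other features of Fabp5 differed by 0.063, 0.026 and -0.061, with mean signals from 4.50 to 4.76; the first 2 were above the floor on both arrays and the third below it on both. The RefSeq table lists a Fabp5-like pseudogene, Fabp5l2, and whether its transcripts bind these probes was not tested.

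Other binding protein genes filled in this family. Of 10 measured genes (the Fabp genes and Pmp2), 5 were above the floor on both arrays, among them Fabp3, Fabp1 and Fabp12. Fabp3, the heart form, had the highest signal of the 5, with 7.03 on the Ssu72fl/fl array and 6.98 on the Lysm-Cre array. The difference of Fabp3 was 0.052, but genes at its signal had a median of -0.37, which put it at 0.42 after level adjustment, beyond a local spread of 0.30. Fabp1, the liver form, read 5.25 on the Ssu72fl/fl array and 5.42 on the Lysm-Cre array, a difference of -0.16 (level-adjusted -0.12, local spread 0.20). Fabp12, next to Fabp4 on the chromosome, read 4.99 on the Ssu72fl/fl array and 4.90 on the Lysm-Cre array, and Fabp9, its neighbour on the other side, was below the floor on both, with 4.39 (Ssu72fl/fl) and 4.36 (Lysm-Cre). Fabp6 (4.82 in Ssu72fl/fl and 4.62 in Lysm-Cre) and Fabp7 (4.69 in Ssu72fl/fl and 4.61 in Lysm-Cre) were above the floor on the Ssu72fl/fl array alone, and Fabp2 and Pmp2 on neither array.

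**Figure D2:**
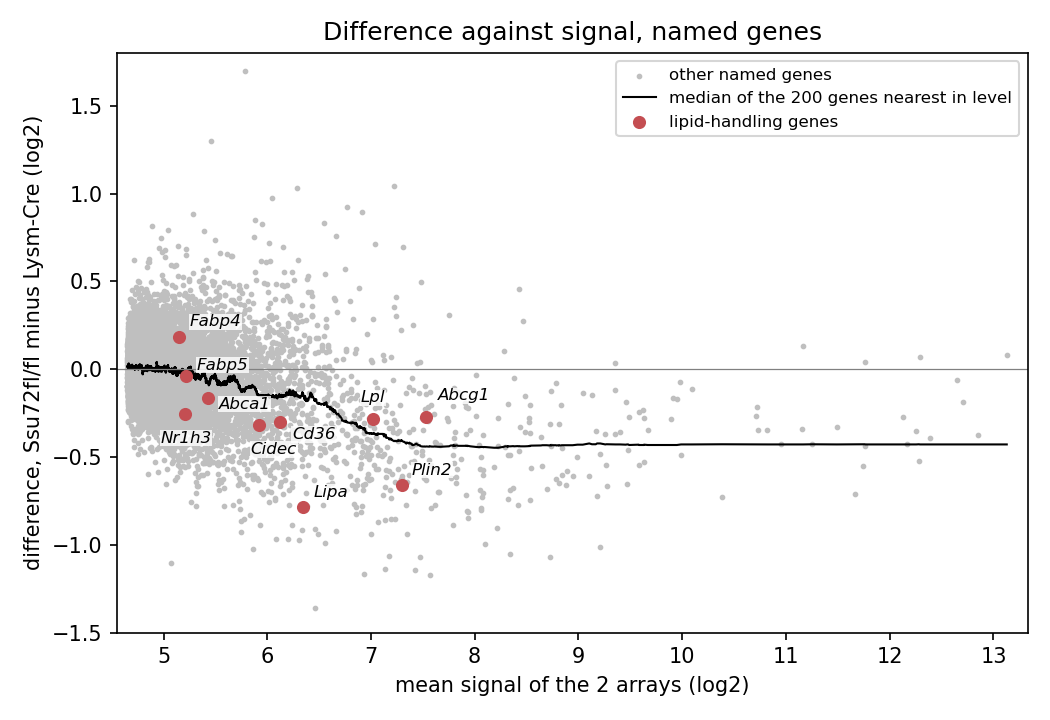
Difference between the arrays (y axis, log2, Lysm-Cre Ssu72fl/fl minus Lysm-Cre) against mean signal (x axis, log2) for named genes above the floor (grey) and the 10 lipid-handling genes (red). The black line is the median of the 200 genes nearest in signal, and it passes below Lpl and Abcg1 and above Plin2 and Lipa.

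Plin2 encodes perilipin 2, the coat protein of lipid droplets in most cells that are not adipocytes. It was among the brightest of the 10, at 6.97 on the Ssu72fl/fl array and 7.62 on the Lysm-Cre array, ranks 237 (Ssu72fl/fl) and 182 (Lysm-Cre). The difference of -0.66 corresponds to 1.58-fold lower signal and was the 107th lowest of 12040. Genes of similar signal had a median of -0.41, and the level-adjusted difference of Plin2 was -0.25, inside the local spread of 0.29. Lower in every setting tried, Plin2 was at least 1.5-fold lower in those that kept the downward drift and not in those that removed it.

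The other perilipin genes had lower signals and smaller differences. Plin3, which also coats droplets, read 5.55 on the Ssu72fl/fl array and 5.72 on the Lysm-Cre array (-0.17, level-adjusted -0.11, local spread 0.25). Plin1, the adipocyte form, differed by -0.064 and Plin5, the form of oxidative tissues, by -0.044. Plin4 differed by 0.0076, with a sign that turned under 4 of 5 scalings. All 4 were above the floor on both arrays.

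Cidec, which in adipocytes fuses small droplets into large ones, read 5.76 on the Ssu72fl/fl array and 6.08 on the Lysm-Cre array. That is a difference of -0.32, and -0.17 after level adjustment with a local spread of 0.25. Among the 200 genes nearest to Cidec in signal, 49 had a lower difference. Its relative Cidea was below the floor on both arrays.

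Lipa encodes lysosomal acid lipase, which frees cholesterol and fatty acids from the esters that macrophages take up. Its signal was 5.95 on the Ssu72fl/fl array and 6.74 on the Lysm-Cre array, so its rank was 826 on the Ssu72fl/fl array and 392 on the Lysm-Cre array. The difference of -0.79, or 1.73-fold lower signal, was the 46th lowest of the 12040 named genes above the floor. After level adjustment Lipa was at -0.65, against a local spread of 0.34, and 7 of its 200 nearest genes had a lower difference. The 3 other ways to remove the drift gave -0.55, -0.54 and -0.53, so Lipa stayed the lowest of the 10 genes in each setting but passed 1.5-fold in none of those 3.

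The transcription factor gene of the efflux branch, Nr1h3 (LXR-alpha), read 5.08 on the Ssu72fl/fl array and 5.34 on the Lysm-Cre array. Its difference of -0.25 was little touched by the drift and stood at -0.23 after level adjustment, past a local spread of 0.20. Across all alternatives Nr1h3 ranged from -0.26 to -0.22. Of the 200 genes nearest in signal, 22 were lower still. With 0.43 of signal above the floor on the Ssu72fl/fl array and 0.68 on the Lysm-Cre array, Nr1h3 was one of the dimmer of the 10 genes.

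After level adjustment, the transporter genes that liver X receptors activate had opposite signs, but both lay inside their local spreads. Neither stood apart from the scatter of genes at its signal. Abca1, which loads cholesterol onto lipid-poor apolipoprotein A-I, read 5.35 on the Ssu72fl/fl array and 5.51 on the Lysm-Cre array. The difference of -0.17 became -0.092 after level adjustment, inside a local spread of 0.22. Abcg1, which passes cholesterol to high-density lipoprotein, had the highest signal of the 10 genes, with 7.39 on the Ssu72fl/fl array and 7.66 on the Lysm-Cre array, ranks 165 (Ssu72fl/fl) and 172 (Lysm-Cre). Its deposited difference was -0.27, but genes of its signal had a median of -0.44, and its level-adjusted difference was 0.17 with a local spread of 0.28. The sign for Abcg1 was negative as deposited and after median centring, and positive under the 4 scalings that removed the drift.

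**Figure D3:**
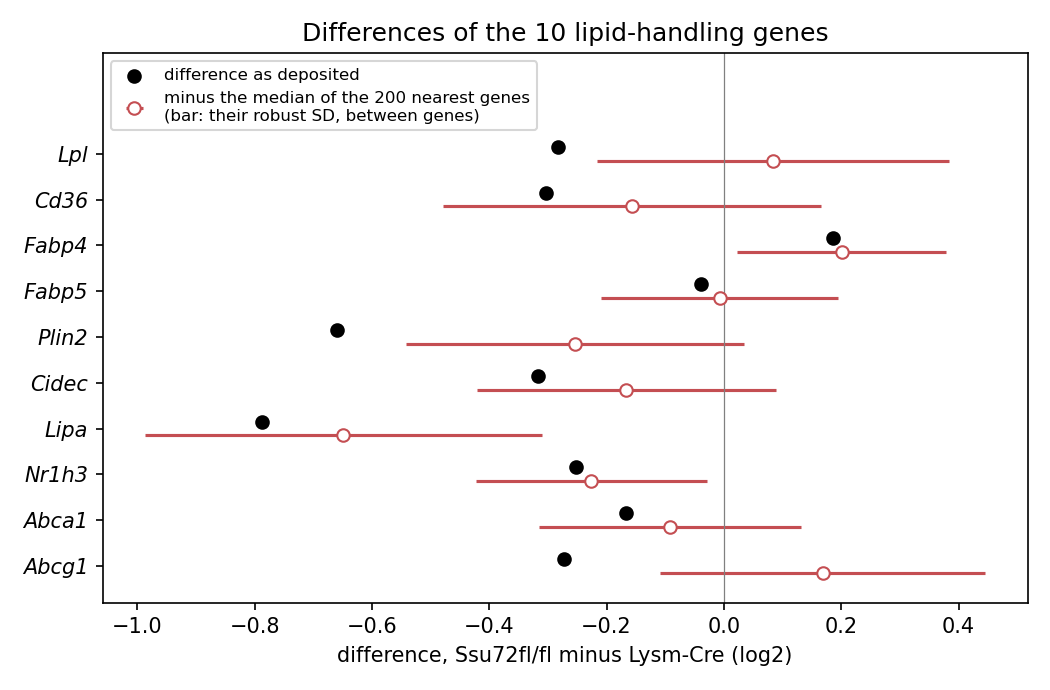
Deposited difference (black) and level-adjusted difference (open red) of each of the 10 genes, in log2, Lysm-Cre Ssu72fl/fl minus Lysm-Cre. Bars are the robust SD between the 200 genes nearest in signal and not an error between animals; the bars of Lipa, Nr1h3 and Fabp4 do not reach 0.

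Further genes of the lysosomal step were set beside Lipa. Genes named at either end of this and the following lists were above the floor on both arrays, and were picked by their values. Of named genes in the signal range used above, 16.1% lay outside their local spread on each side. Lying past it therefore does not by itself set such an end gene apart. In a list of lysosomal lipid enzymes, carriers and regulators, 18 of the 24 genes other than Lipa with a mean signal above the floor were lower (median -0.17; 6 were higher), and after level adjustment 13 were lower with a median of -0.039. As deposited, 52.7% of all named genes above the floor were lower. The lowest of the 24 as deposited was Gm2a, the GM2 ganglioside activator, with 6.55 on the Ssu72fl/fl array and 7.18 on the Lysm-Cre array (-0.63, level-adjusted -0.31, local spread 0.28). Psap, the precursor of the saposins, came next with 8.54 on the Ssu72fl/fl array and 9.14 on the Lysm-Cre array (-0.60, level-adjusted -0.17, local spread 0.29). After level adjustment the lowest of the 24 were Ppt2 (-0.53, level-adjusted -0.44, local spread 0.24) and Ppt1 (-0.33, level-adjusted -0.31, local spread 0.17). The highest was Smpd1, acid sphingomyelinase, at 5.41 on the Ssu72fl/fl array and 4.99 on the Lysm-Cre array (0.42, level-adjusted 0.45). The calcium channel gene Mcoln1 (0.15) and Tfeb (0.12), a transcription factor of lysosomal genes, followed. Lipa had a lower level-adjusted difference than any other gene of this list. Cholesterol export from lysosomes passes through Npc2 and Npc1, of which Npc2 was at -0.22 (level-adjusted 0.11) and Npc1 at -0.0064.

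For uptake, 12 of the 22 listed genes that were not among the 10 were lower and 10 higher, where 52.7% of named genes above the floor were lower. The median of the 22 was -0.051, or -0.038 when level-adjusted. Lowest was Cxcl16, a transmembrane chemokine that also binds oxidised lipoprotein, with 6.15 on the Ssu72fl/fl array and 6.92 on the Lysm-Cre array (-0.77, level-adjusted -0.57, local spread 0.32). The oxidised LDL receptor gene Olr1 (-0.60) and the endosomal glycoprotein gene Cd68 (-0.57) came next, and both were inside their local spreads after adjustment, at -0.19 and -0.20. At the other end stood the fatty acid transport protein genes Slc27a4 (0.28) and Slc27a3 (0.17), with Fabp4 between them.

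Of 26 droplet and esterification genes other than Plin2 and Cidec, 15 were lower and 11 higher, where 52.7% of named genes above the floor were lower. The median of the 26 was -0.032 (level-adjusted -0.033). Lpin1, a phosphatidate phosphatase of triglyceride synthesis, read 5.57 on the Ssu72fl/fl array and 5.93 on the Lysm-Cre array and was the lowest of them (-0.37, level-adjusted -0.24). Bscl2, which encodes seipin, a protein of droplet formation, was highest at 5.49 on the Ssu72fl/fl array and 4.99 on the Lysm-Cre array. Its difference of 0.50 was unchanged to 2 decimals by level adjustment and exceeded its local spread of 0.18. This gene was picked as the highest of the 26. Of named genes in the signal range used above, 16.1% lay outside on the higher side. The droplet protein genes Hsd17b11 (0.23) and Hilpda (0.13) followed, and were at 0.30 and 0.32 after level adjustment.

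Of 23 efflux and nuclear receptor genes that were not among the 10, 13 were lower and 10 higher, near the 52.7% of named genes above the floor that were lower. The median of the 23 was -0.057 (level-adjusted -0.048). Lowest were Pltp, a phospholipid transfer protein gene known as an LXR target, at 6.17 on the Ssu72fl/fl array and 6.59 on the Lysm-Cre array (-0.41, level-adjusted -0.24), Pparg (-0.39, level-adjusted -0.29) and the apolipoprotein gene Apoe (-0.36, level-adjusted -0.27). Pparg and Apoe were past their local spreads of 0.24 after adjustment, and Pltp was inside one of 0.32. All were picked as the lowest of the list. Of named genes in the signal range used above, 16.1% lay outside on the lower side. Rxrb (0.22) and Rxrg (0.18), which encode partners of PPAR and LXR, and Abcg4 (0.15) were highest. Among other transporters of the family, Abca3, the lamellar body transporter of type 2 cells, was at -0.20, Abca9 at -0.17, Abca7 at -0.059 and Abca2 at 0.0051 (a sign that turned under 1 of 5 scalings), and Abca5 and Abcg2 were below the floor on both arrays. Mylip (0.013) and Srebf1 (0.0066, with its sign turned under 1 of 5 scalings), LXR target genes like Pltp, differed little as deposited. They are not all of the LXR targets measured. After level adjustment Mylip was at 0.17, inside a local spread of 0.28, and Srebf1 at 0.011.

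Genes that make sterols and fatty acids were also measured. Of 19 sterol synthesis genes above the floor 13 were lower and 6 higher, where 52.7% of all named genes above the floor were lower. The median of the 19 was -0.080 (level-adjusted -0.015), from Pmvk (-0.31), Ebp (-0.18) and Mvk (-0.18) to Fdps (0.20), Mvd (0.096) and Hmgcs1 (0.085). Of 17 fatty acid and phospholipid synthesis genes 12 were lower and 5 higher, beside the same 52.7% of all named genes above the floor. The median of the 17 was -0.051 (level-adjusted -0.047). The stearoyl-CoA desaturase gene Scd1 read 5.19 on the Ssu72fl/fl array and 5.69 on the Lysm-Cre array (-0.51, level-adjusted -0.42, local spread 0.23), followed by the citrate lyase gene Acly (-0.42, level-adjusted -0.33) and Mlxipl (-0.19). Lpcat2, a lysophosphatidylcholine acyltransferase of inflammatory cells, was highest at 5.35 on the Ssu72fl/fl array and 4.88 on the Lysm-Cre array (0.47), ahead of Pcyt1a (0.074) and Elovl6 (0.048).

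**Figure D4:**
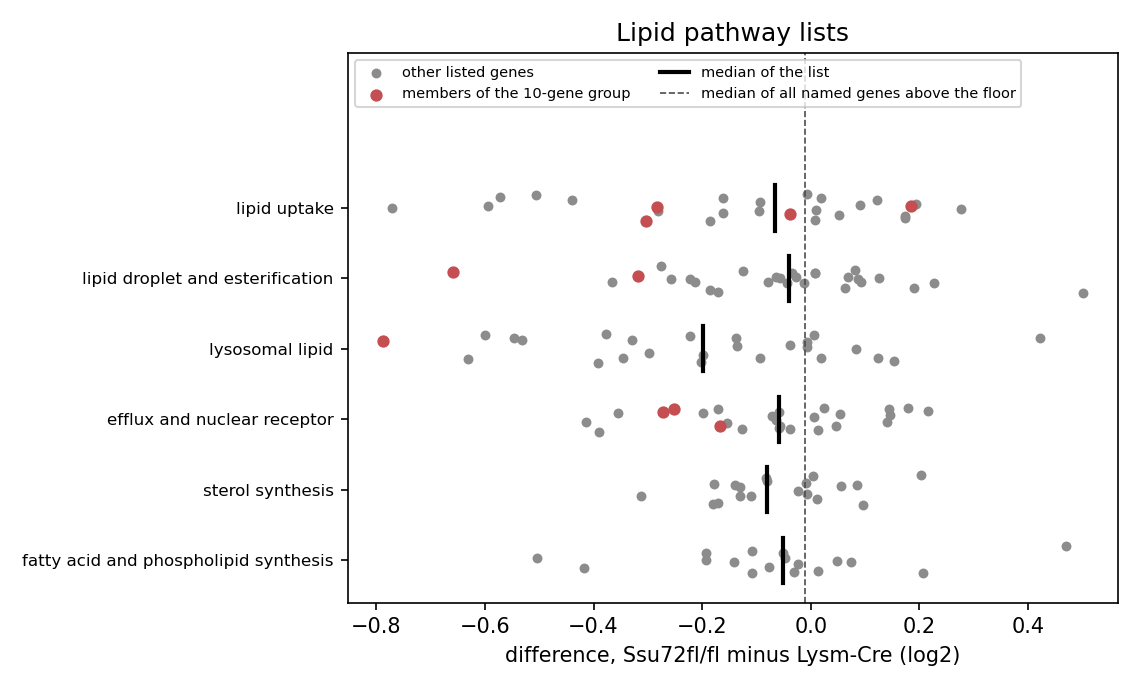
Differences (x axis, log2, Lysm-Cre Ssu72fl/fl minus Lysm-Cre) of listed genes with a mean signal above the floor in 6 lipid pathway lists, with the 10 lipid-handling genes in red and the median of each list as a black bar. On this deposited scale the lysosomal list has the lowest median (-0.20 with Lipa included), and the dashed line is the median of all named genes above the floor (-0.010). The lysosomal median is also the lowest with the loess (-0.074) and with the nearest genes subtracted (-0.068). It is -0.0089 after quantile normalization and -0.014 with the lowess on level bins, where the efflux list is lowest at -0.051 and -0.042.

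Markers of the sorted cells and of other cells moved as follows. For comparison, 52.7% of all named genes above the floor were lower as deposited. In the signal range of the 10 genes 61.9% were lower as deposited and 50.2% after level adjustment. All 12 alveolar macrophage markers measured, with Lpl of the 10 genes among them, were above the floor on both arrays. Their median signal was 6.85 on the Ssu72fl/fl array and 7.17 on the Lysm-Cre array, and all 12 were lower as deposited (median -0.29) but 6 of 12 after level adjustment. Without Lpl the median was -0.30, and 6 of 11 were lower after level adjustment. Interstitial macrophage and monocyte markers were lower for 8 of 9 genes above the floor, with a median signal of 5.20 on the Ssu72fl/fl array and 5.48 on the Lysm-Cre array and a median difference of -0.39 (level-adjusted -0.36, 8 of 9 lower). Their part in the lower signals of Lipa and Nr1h3, which such cells also express, was not tested. In sorted cells measured in bulk, fewer cells of a type and less RNA per cell cannot be told apart. Adipocytes share Fabp4, Plin2, Cidec and Lpl with these macrophages, and the adipocyte genes Adipoq and Lep were below the floor on both arrays. The other 5 adipocyte markers measured had a median signal of 4.96 on the Ssu72fl/fl array and 4.78 on the Lysm-Cre array, with 4 of 5 higher. Capillary endothelium also expresses Cd36 and Fabp4. Of 8 endothelial markers 5 were lower and 3 higher (median -0.055), from Cdh5 (-0.47) to Ramp2 (0.38). Of 8 type 2 cell markers 7 were lower (median -0.17, level-adjusted -0.10), Sftpc with 8.35 on the Ssu72fl/fl array and 8.71 on the Lysm-Cre array (-0.36, level-adjusted 0.074). The part of these cells in the values of the 10 genes was not tested.

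In the order of the 10 differences the lowest and the highest gene held, and genes between them changed places with the scaling. Plin2 was second lowest as deposited, but with the lowess on level bins Nr1h3 (-0.22) was below Plin2 (-0.21). Lipa was lowest in each of the 7 settings plotted, and Fabp4 was highest in each (0.17 to 0.21). Abca1, Cd36, Cidec, Nr1h3, Plin2, Lipa and Fabp5 were lower in all 7, although the values of Fabp5 ran from -0.051 to -0.0026. Quantile normalization turned the split of 1.5-fold calls among all genes above the floor, with 44 lower and 103 higher, where the deposited values had 179 lower and 45 higher, and it left none of the 10 genes past 1.5-fold, where 0.365% of all genes above the floor were at least 1.5-fold lower.

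**Figure D5:**
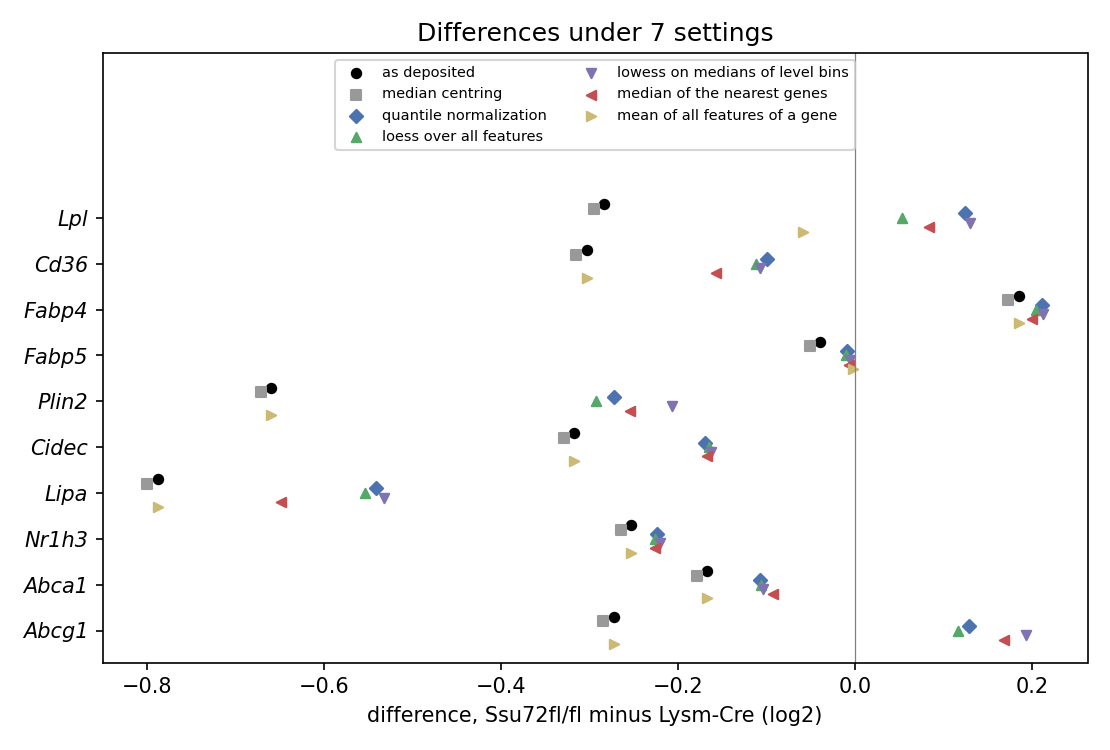
Difference of each of the 10 genes (x axis, log2, Lysm-Cre Ssu72fl/fl minus Lysm-Cre) as deposited and under 6 alternative settings, 1 symbol per setting. Lpl and Abcg1 have points on both sides of 0, Lipa stays between -0.80 and -0.53, and Fabp4 stays above 0.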

How the data were processed

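The labels describe total RNA from sorted alveolar macrophages, 6 ug per sample, biotin-labelled for Affymetrix arrays. The authors deposited 1 log2 value per feature (33793 features, 4.23 to 13.5); that the scale is log2 was inferred from the values. MAS5 is named, with no role, per the submitters' processing notes; the sources used here do not state the background correction, normalization, offset or build. Of the features, 23521 carried 1 gene symbol, 1814 several and 8458 none; 23328 took their symbol from RefSeq (GRCm38.p6) through the Entrez identifier. Groups follow the genotype labels. Pathway and marker lists were read over genes with a mean above the floor, the 50th percentile of all values. A robust SD is 1.4826 times the median absolute deviation. Alternatives were median centring, 4 settings that remove the drift (quantile normalization, loess with span 0.3, lowess on level bins, nearest genes), the mean of a gene's features, and other floors and thresholds. The genes named were the 10, and the 3 highest and 3 lowest of each of 6 lists. Relatives in the Fabp, Plin, Cide, Nr1h, Abca and Abcg families were also named, with Ssu72 and Lyz2. Others named were chosen after their values were seen. The 10 genes and the lists were chosen with earlier results of these data known. The procedure was tested on simulated data. Python 3.11.15, pandas 2.3.3 and statsmodels 0.14.6 were used.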

Additional observations from a re-analysis of the deposited data

How the results depend on the processing

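The count of the 10 genes at least 1.5-fold lower, 2 as deposited, was 0 after quantile normalization, 0 with the loess over all features, 0 with the lowess on level bins and 1 (Lipa) with the nearest genes subtracted. Over all named genes above the floor, the share at least 1.5-fold lower was 1.49% as deposited and 0.365%, 0.357%, 0.341% and 0.399% in those 4 settings. With a threshold of 2-fold the count of the 10 genes was 0, where 0.0997% of named genes above the floor were lower by that much. With 1.2-fold it was 6, where 9.93% of named genes were lower by that much; in the same 4 settings, added after the data were seen, it was 2, 2, 1 and 1, where 5.57%, 5.64%, 5.2% and 6.27% of named genes were. None was at least 1.5-fold higher in any setting. Of 60 differences of single genes under alternatives, 48 moved by less than the local spread and 12 by more; these 12 were values of Lpl, Plin2 and Abcg1 under the 4 removals of the drift, and 8 of them, of Lpl and Abcg1, changed sign. Using the mean of a gene's features put Lpl at -0.059, against -0.28 with its brightest feature. The median of the lysosomal list was -0.20 as deposited. It was -0.0089 after quantile normalization, -0.014 with the lowess on level bins, -0.074 with the loess and -0.068 with the nearest genes subtracted. The median of the uptake list lay on both sides of 0 (-0.22 with the floor at the 75th percentile, 0.0069 with the lowess on level bins). Lipa was at -0.53 with the lowess on level bins, against -0.65 with the nearest genes; the cause was not tested. No paired analysis was possible because each genotype had 1 array. With no scanner files used here, signal over background could be judged only against the median of all values, and differences of dim genes such as Nr1h3 and Fabp4 rest on less than 0.7 above it.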

Other observations

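The genes of droplet lipolysis were named after their values were seen. Pnpla2, adipose triglyceride lipase, read 5.263 on the Lysm-Cre Ssu72fl/fl array and 5.201 on the Lysm-Cre array (0.063). Its coactivator Abhd5 read 4.70 on the Lysm-Cre Ssu72fl/fl array and 4.89 on the Lysm-Cre array (-0.19, level-adjusted -0.19, past a local spread of 0.12), and its inhibitor G0s2 read 5.55 on the Lysm-Cre Ssu72fl/fl array and 5.58 on the Lysm-Cre array (-0.028), with a sign that turned under 4 of 5 scalings. Lipe, hormone-sensitive lipase, differed by 0.088 and Mgll, monoglyceride lipase, by 0.068. The cholesterol ester hydrolase gene Nceh1, whose product acts outside the lysosome, read 5.50 on the Lysm-Cre Ssu72fl/fl array and 5.72 on the Lysm-Cre array (-0.21, level-adjusted -0.13, local spread 0.25), beside the -0.79 of the lysosomal enzyme gene Lipa.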
